A study of Mus musculus with 12 samples.

Results

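The interferon-stimulated genes described here are 45 genes that cells switch on when interferon reaches them, and they were followed in RNA of hand-picked mouse pancreatic islets. They were chosen by gene name from a list of such genes, and all 45 were found among the 24474 genes of the male table and the 24631 genes of the female table. The choice was made with earlier results of these data known, so counts of members called describe the list and are no independent test. The male knockout mice carried Rnf20 F/F together with Pdx1 Cre ER, and the male controls were Rnf20 flox mice for which no Cre is named. The female knockouts and female controls had those same genotypes. There were 3 libraries in each of the 4 groups, and all 12 libraries came from mice that had been given 5 gavages of tamoxifen at 150 ug per g of body weight at 4 weeks of age. The age at islet isolation is not given in the labels. Pdx1 drives the tamoxifen-dependent Cre chiefly in beta cells of the adult islet, while whole islets were sequenced, so RNA of other islet cells is included. An effect of the Cre transgene cannot be told apart from that of the genotype. No label ties a library to an animal of its own, so p-values measure the spread between libraries, which may be technical.

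Interferons are cytokines that signal through cell surface receptors and JAK kinases to transcription factors. Stat2 and Irf9 belong to a complex that binds the interferon-stimulated response element (ISRE) in promoters of antiviral genes, whereas interferon gamma acts through the gamma-activated site (GAS). Many of the induced genes encode sensors of viral nucleic acid, enzymes that block viral replication, and further Irf factors that keep the response going. Human islets show raised levels of these genes early in autoimmune diabetes, and beta cells answer interferon with raised antigen presentation and chemokine release. Rnf20 encodes a ubiquitin ligase that modifies histone H2B in transcribed genes.

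Promoter sequence is shown for members that carry the main results, so that the elements named above can be seen. Windows of 250 bases before to 50 bases after an annotated start came from RefSeq on GRCm38.p6, another build than the GRCm39 of the deposited tables, and 36 of the 45 members had one. No window is shown for Usp18, Mx2, Mx1, Dhx58, Zbp1, Parp9, Oas2, Parp14 and Ifi27. The ISRE core was searched as GAAA, any 2 bases and GAAA, and the GAS as TTC, any 3 bases and GAA, each on both strands. Each stretch reads 5′ to 3′ on the gene's strand, runs from 30 bases before the first match to 30 bases after the last in the first window listed for the gene, and has the matches in capitals. The first 7 are from genes with falls in male knockout islets, and Cxcl10, Gbp5 and Apol9b also had a called difference between the sexes.
Isg15, ISRE cores, minus strand, chr4:156200845-156200926: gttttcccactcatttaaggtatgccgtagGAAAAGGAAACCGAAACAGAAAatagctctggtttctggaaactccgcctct
Ifit1, ISRE cores, plus strand, chr19:34640755-34640843: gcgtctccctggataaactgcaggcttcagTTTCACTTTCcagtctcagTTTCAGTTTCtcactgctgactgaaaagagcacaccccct
Cxcl10, ISRE core, minus strand, chr5:92349063-92349132: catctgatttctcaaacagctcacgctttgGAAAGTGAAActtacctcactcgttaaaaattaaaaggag
Bst2, ISRE cores, minus strand, chr8:71537557-71537632: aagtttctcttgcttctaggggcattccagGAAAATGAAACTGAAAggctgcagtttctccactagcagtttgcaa
Gbp5, ISRE core, plus strand, chr3:142496739-142496808: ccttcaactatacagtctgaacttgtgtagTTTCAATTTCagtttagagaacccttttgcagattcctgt
Apol9a, ISRE cores, minus strand, chr15:77411094-77411169: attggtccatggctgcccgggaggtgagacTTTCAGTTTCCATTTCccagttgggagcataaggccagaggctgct
Apol9b, ISRE cores, plus strand, chr15:77729005-77729080: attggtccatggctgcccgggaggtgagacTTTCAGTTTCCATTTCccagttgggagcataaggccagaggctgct
Irf1, GAS, plus strand, chr11:53769894-53769962: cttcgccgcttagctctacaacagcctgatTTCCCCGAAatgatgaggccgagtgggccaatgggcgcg
The Apol9a and Apol9b stretches were identical letter for letter. Among the 8 stretches that of Irf1 alone was chosen to show a GAS. The windows of Bst2 and Gbp5 also hold a GAS, not marked as such here, and both genes fell in male knockout islets. Irf1 was the sole member whose male log2 fold change lay above 0, so all other members with a GAS had male values below 0.

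An ISRE core was present in the windows of 20 of the 36 members (55.6%), against 3.99% of the 27025 genes with a window. A GAS was present in 9 of the 36 (25.0%), against 9.55% of those genes. Both motifs occurred in 6 members, and in Bst2 and Ifitm3 an ISRE core and a GAS shared letters. Of the 24 members with a window that were called lower in male knockout islets, 14 had an ISRE core, and of the 12 that were not called, 6 had one. A match is a run of letters and not a measured binding site.

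**Figure D1:**
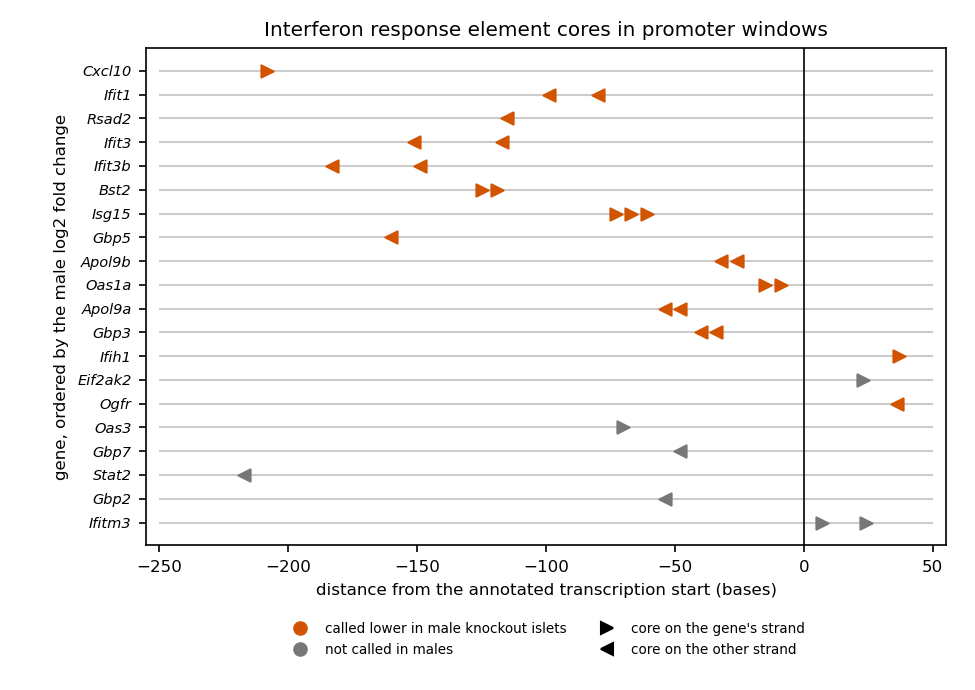
Position of each ISRE core (triangles, pointing right on the gene's strand and left on the other strand) relative to the annotated transcription start, in bases, for the 20 members with a core. Genes run from the lowest male log2 fold change at the top to the highest at the bottom; orange marks the 14 genes called lower in male knockout islets and grey the 6 not called, and cores of both kinds lie on either side of the start.

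The targeted gene was lower in every knockout library. Rnf20 had 1519, 1373 and 1436 normalized counts in male knockout libraries, against 3812, 3409 and 4058 in male controls, and 1877, 2000 and 1927 in female knockouts, against 3589, 4032 and 4340 in female controls. Its log2 fold change was -1.38 ± 0.12 (SE, adjusted p = 0.000791) in males and -1.04 ± 0.10 (SE, adjusted p = 0.000635) in females. Normalized counts are reads divided by a size factor per library, set by the submitters within each sex, so levels are compared within a sex. The libraries held 19759712 to 56086810 assigned reads. Male control 2 stood apart with the fewest reads and 17701 genes with reads, against 22287 to 23255 in the other male libraries, and it had the highest value of the 6 male libraries in 37 of the 45 members. Counts without it are therefore given below. The islet hormone gene Ins1 and other beta cell markers were present in all libraries, and 6 of the 10 beta cell markers were lower in male and 8 of 10 in female knockouts, while Nkx6-1 was higher in both (log2 fold changes of 0.68 in males and 0.63 in females). In bulk RNA, fewer cells of a type and less RNA per cell cannot be told apart.

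In male islets, loss of Rnf20 went with lower levels of most interferon-stimulated genes. Of the 45 members, 30 were lower and 0 higher in male knockouts at an adjusted p below 0.05 in limma on log2 of the normalized count plus 1, where 7.09% of the 18010 genes tested were called lower and 6.08% higher. At an unadjusted p below 0.05, 39 members were lower, as were 13.9% of all genes tested, and 0 were higher. On the recovered reads, edgeR called 31 members lower (7.22% of all genes) and DESeq2 38 (10.2% of all genes), each with 0 higher. The 8 that DESeq2 added were Eif2ak2, Gbp7, Ifit2, Parp14, Parp9, Rnf213, Stat2 and Zbp1. The median log2 fold change over the members was -1.04, against 0.06 over all genes tested. In 37 members every male knockout library lay below every male control library, which held for 16.9% of all genes tested, and in 1 member, Irf1, every knockout lay above every control, which held for 18.6%. The authors' deposited table has 36 members lower and 0 higher in males, where 10.4% of its genes with an adjusted p are lower. Leaving out 1 library at a time gave between 20 members lower (without male knockout 1) and 33 (without male control 1), and 26 without male control 2, with a median of -0.90. Over all genes, 508 of 17986 were called lower without male knockout 1, 977 of 17992 without male control 1 and 1138 of 17976 without male control 2. With all 6 libraries it was 1277 of 18010. Of the 30 calls, 20 held in each of these 6 fits.

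In female islets most of the same genes were not called between knockouts and controls. Of the 45 members, Apol9a, Apol9b and Ifi35 were higher and 0 were lower in female knockouts, where 9.9% of the 18142 genes tested were called higher and 10.7% lower. At an unadjusted p below 0.05, 7 were higher, a share close to the 16.4% of all genes tested, and 0 were lower. On the recovered reads, edgeR called 3 higher (9.94% of all genes) and DESeq2 5 (11.5% of all genes), each with 0 lower, and the genes that DESeq2 added were Irf1 and Oas3. The median log2 fold change was 0.06, against -0.01 over all genes tested. In 5 members (Irf1, Oas3, Apol9a, Apol9b and Ifi35) every female knockout lay above every female control, which held for 19.0% of all genes tested, and in 0 members every knockout lay below every control, which held for 20.3%. The authors' deposited table has 5 members higher and 0 lower in females, where 10.8% of its genes with an adjusted p are higher. The female count changed when 1 library was left out. Without female control 3, 9 members were called higher, as were 1867 of all 18179 genes tested. Only 1 member was called higher without female knockout 1 (1093 of 18124 genes), female knockout 2 (774 of 18144) or female control 2 (932 of 18138). With all 6 libraries, 1796 of 18142 genes were called higher. Without female control 1, 2 members were higher and 2 lower, Ifit1 (adjusted p = 0.0159) and Samd9l (adjusted p = 0.0158). In that fit 1770 of all 18207 genes were higher and 2000 lower.

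**Figure D2:**
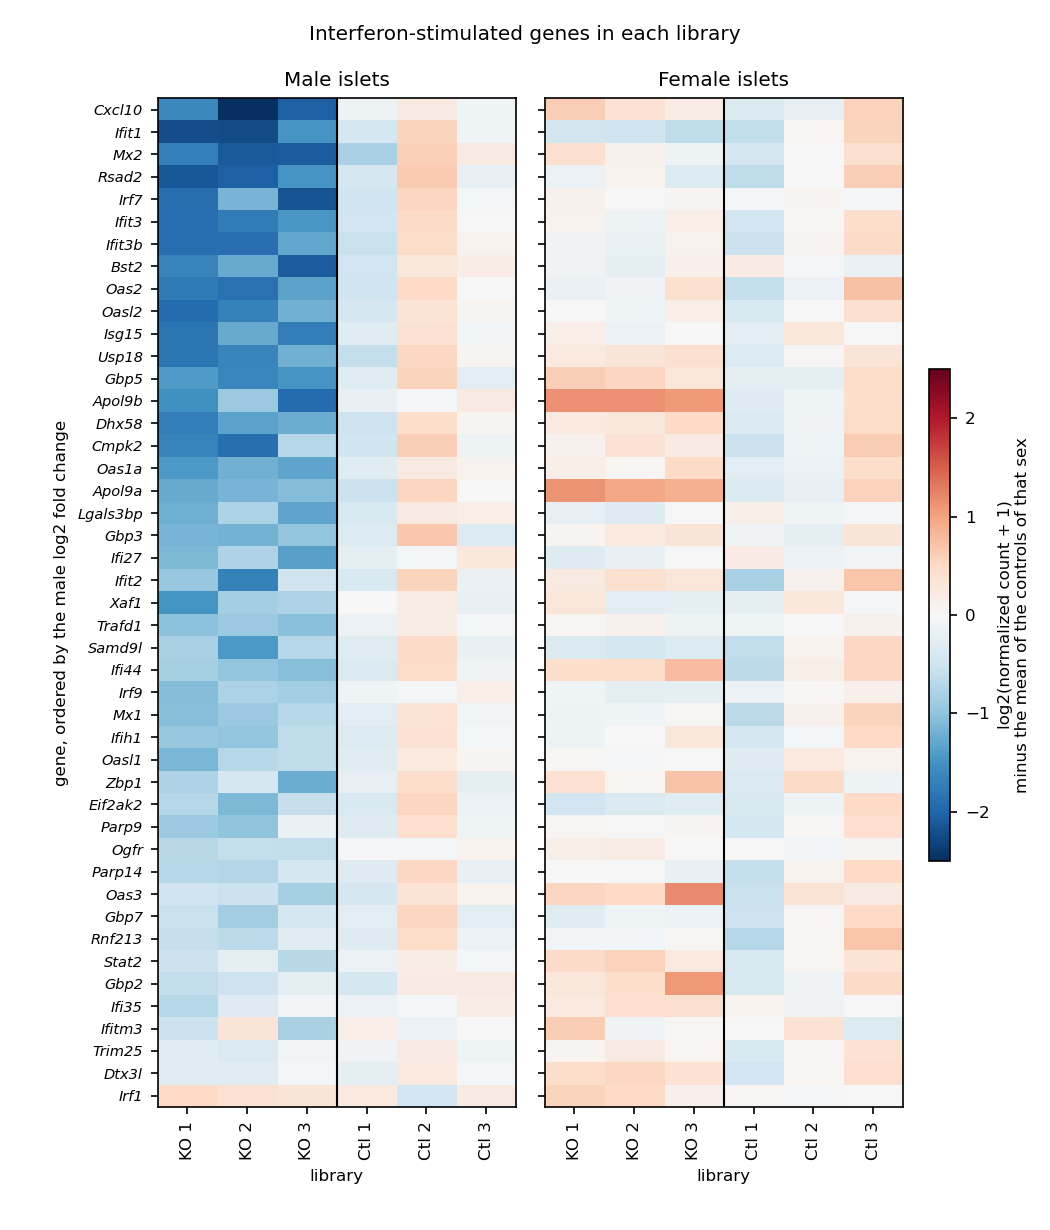
Log2 of the normalized count plus 1 in each library minus the mean of the controls of that sex (colour), for the 45 members (rows, lowest male log2 fold change at the top), with 3 knockout libraries left of 3 control libraries in each sex. The male knockout columns are blue in most rows. In the female panel the mean over the knockout columns is highest in the rows of Apol9b and Apol9a. Female control 1 is the lowest of the 6 female libraries in 32 rows.

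**Figure D3:**
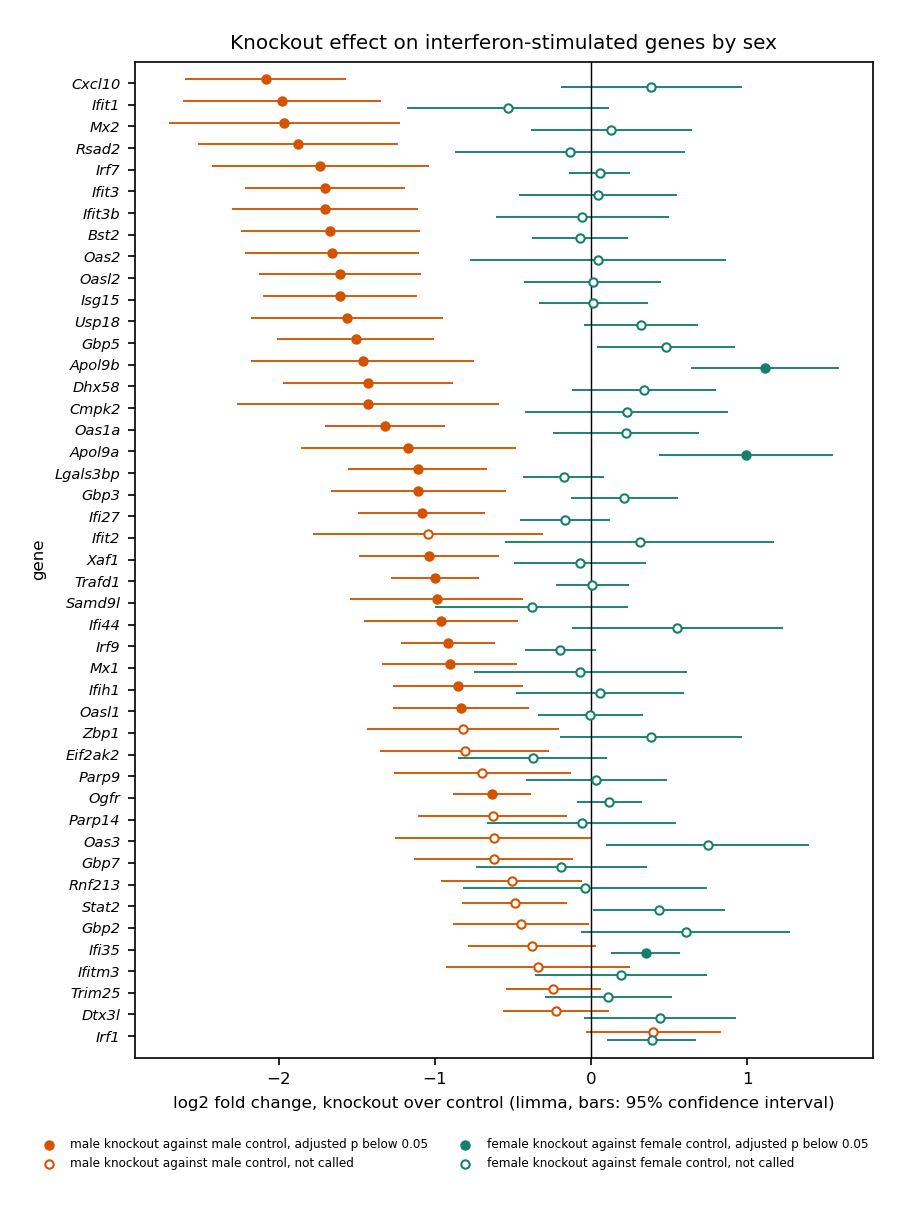
Log2 fold change of knockout over control for each member (points; bars are 95% confidence intervals from limma, n = 3 libraries per group) in males (orange) and females (green). Filled points are called at an adjusted p below 0.05: 30 members in males, all left of 0, and 3 in females, all right of 0.

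Among the transcription factors, Irf7 and Irf9 fell in male knockouts, while Stat2 and Irf1 were not called. Irf7, which amplifies the interferon response and is itself induced by interferon, had 1909, 3136 and 1563 normalized counts in male knockouts, against 4989, 10101 and 6819 in male controls. Female knockouts had 5715, 5227 and 5564, against 5143, 5568 and 5182 in female controls. The male groups did not overlap, whereas the female libraries all lay within a narrow range, and the male log2 fold change was -1.73 ± 0.30 (SE, adjusted p = 0.00855). Irf9, the DNA-binding part of the complex that binds the ISRE, had 1976, 2435 and 2306 in male knockouts, against 3893, 4058 and 4716 in male controls, and 3720, 3445 and 3401 in female knockouts, against 3636, 4109 and 4384 in female controls. Its male log2 fold change was -0.92 ± 0.13 (SE, adjusted p = 0.00373), and the female groups overlapped. Stat2 had 4650, 5653 and 4155 in male knockouts, against 6015, 7660 and 6534 in male controls. In females it had 6880, 7330 and 5858 in knockouts, against 3755, 5115 and 6213 in controls. All male knockouts lay below all male controls, but the male fold change of -0.49 ± 0.15 (SE, adjusted p = 0.0629) was not called. It was called without male knockout 2 (adjusted p = 0.0331), with DESeq2 (adjusted p = 0.0214) and with limma-voom (adjusted p = 0.043). Irf1, a factor induced chiefly by interferon gamma, had 4227, 3874 and 3704 in male knockouts, against 3531, 2140 and 3494 in male controls, and 5004, 4792 and 3721 in female knockouts, against 3552, 3315 and 3384 in female controls. Knockouts lay above controls in both sexes, at log2 fold changes of 0.40 ± 0.19 (SE, adjusted p = 0.211) in males and 0.39 ± 0.12 (SE, adjusted p = 0.0592) in females. The female value was called without female knockout 3 (adjusted p = 0.0186), with quantile scaling and with DESeq2 (adjusted p = 0.0176). Across the 4 factors the female log2 fold changes ran from -0.20 to 0.44 and none was called in limma with all libraries. Stat2 was called higher in females without female control 3 (adjusted p = 0.0366).

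The sensors of foreign RNA and DNA were lower in males, with 2 of 4 called. Dhx58, a helicase that helps Ifih1 recognise double-stranded RNA, had 640, 839 and 899 in male knockouts, against 1482, 2860 and 2222 in male controls. Among females it had 1692, 1703 and 2012 in knockouts, against 1108, 1328 and 1943 in controls. The male groups were well apart, at -1.43 ± 0.24 (SE, adjusted p = 0.00652), while the female groups overlapped. Ifih1, which senses long double-stranded RNA, had 2055, 1978 and 2545 in male knockouts, against 3128, 5053 and 3864 in male controls, and 2921, 3216 and 3841 in female knockouts, against 2340, 3061 and 4461 in female controls. The male change was -0.85 ± 0.18 (SE, adjusted p = 0.0172), a call that was lost without male knockout 1 (adjusted p = 0.077). Zbp1, a sensor of Z-form nucleic acid that can start cell death, had 372, 471 and 267 in male knockouts, against 555, 864 and 539 in male controls, and 1067, 856 and 1358 in female knockouts, against 639, 1156 and 757 in female controls. Its male groups did not overlap, yet its fold change of -0.82 ± 0.27 (SE, adjusted p = 0.0839) was not called in limma. It was called with DESeq2 (adjusted p = 0.036) and with all 12 libraries in 1 fit (adjusted p = 0.0479). Eif2ak2, the kinase that stops translation on contact with double-stranded RNA, was not called either, with a male log2 fold change of -0.81 and ranges of 1672 to 2446 in male knockouts, against 2796 to 5323 in male controls. It was called without male control 1 (adjusted p = 0.0279) and under 6 of 11 other settings (adjusted p from 0.00548 to 0.0794). In females the 4 sensors ran from -0.37 to 0.38 and none was called, although Dhx58 was called higher without female control 3 (adjusted p = 0.0225).

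The IFIT proteins, which bind viral RNA and keep it from being translated, lie side by side on chromosome 19 and had some of the deepest falls. Ifit1, whose product binds RNA that lacks a methylated cap, had 1802, 1768 and 3004 in male knockouts, against 6145, 12304 and 7760 in male controls. Female knockouts had 4126, 3989 and 3650, against 3692, 5854 and 8356 in female controls. All male knockouts lay below all male controls, at -1.98 ± 0.28 (SE, adjusted p = 0.00383), while the female groups overlapped. Ifit3, a partner of Ifit1, had 2513, 2816 and 3431 in male knockouts, against 6796, 13154 and 9370 in male controls, and 6121, 5319 and 6483 in female knockouts, against 4166, 5907 and 7804 in female controls. Its male log2 fold change was -1.70 ± 0.23 (SE, adjusted p = 0.00296). Ifit3b, its neighbouring copy, had 919, 916 and 1397 in male knockouts, against 2342, 4740 and 3661 in male controls, and 1918, 1815 and 2160 in female knockouts, against 1404, 2124 and 2824 in female controls, and changed in males by -1.70 ± 0.26 (SE, adjusted p = 0.00474). These values of Ifit3 and Ifit3b are uncertain as separate measurements, since 51.2% of the 50-base words of Ifit3 also occur in Ifit3b, and Ifit1 shares 7.13% of its words with other genes. Ifit2, a further member of the cluster, was not called in males, at -1.04 ± 0.32 (SE, adjusted p = 0.0703), but was called without male knockout 3 (adjusted p = 0.0388) and with DESeq2 (adjusted p = 0.00617). Its male knockouts ranged over 1065 to 2428, against 2625 to 5038 in male controls. In females the 4 genes ran from -0.53 to 0.31 and none was called, although Ifit1 was called lower without female control 1, as given above.

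Active enzymes of the OAS family make oligoadenylates that switch on RNase L, and 4 of the 5 family members listed fell in male knockouts. Oas1a had 638, 757 and 701 in male knockouts, against 1412, 2030 and 1837 in male controls. Female knockouts had 1362, 1276 and 1724, against 1013, 1110 and 1669 in female controls. Male knockouts were tightly grouped and below all controls, at -1.32 ± 0.17 (SE, adjusted p = 0.00244); 57.6% of the 50-base words of Oas1a occur in other genes, Oas1g first, so its level is uncertain. Oas2 had 1066, 998 and 1445 in male knockouts, against 2585, 5177 and 3630 in male controls, and 1989, 2088 and 2916 in female knockouts, against 1480, 2013 and 3686 in female controls. The male fold change was -1.66 ± 0.25 (SE, adjusted p = 0.00422). Oasl2, an OAS-like protein, had 2574, 3047 and 4265 in male knockouts, against 7374, 12490 and 10283 in male controls, and 6678, 6193 and 7488 in female knockouts, against 5088, 6758 and 8812 in female controls. Its male fold change was -1.61 ± 0.23 (SE, adjusted p = 0.00365), with no overlap. Oasl1, which in mice limits translation of Irf7, had 824, 1121 and 1172 in male knockouts, against 1476, 2172 and 1911 in male controls, and 1697, 1623 and 1635 in female knockouts, against 1318, 1962 and 1754 in female controls. The male log2 fold change was -0.83 ± 0.19 (SE, adjusted p = 0.0225), but the call was lost without male knockout 1, male control 2 or male control 3 (adjusted p up to 0.0969). Oas3 was not called in either sex: its male log2 fold change was -0.62 ± 0.28 (SE, adjusted p = 0.18), with 180 to 225 normalized counts in male knockouts, against 238 to 407 in male controls. Its female log2 fold change was 0.75 ± 0.28 (SE, adjusted p = 0.103), called with DESeq2 (adjusted p = 0.0454), with 383 to 614 in female knockouts, against 182 to 339 in female controls. Across the 5 genes the female log2 fold changes ran from -0.0034 for Oasl1 to 0.75 for Oas3, and none was called in limma. The authors' deposited table has Oas3 higher in females, at 0.73 (adjusted p = 0.0387).

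Both MX GTPases, which trap viral nucleocapsids, fell in male knockouts. Mx2 had 380, 291 and 294 in male knockouts, against 712, 1880 and 1455 in male controls. In females it had 790, 644 and 548 in knockouts, against 444, 604 and 790 in controls. Male knockouts were close together while male controls were spread out, and the fold change was -1.96 ± 0.33 (SE, adjusted p = 0.00643). Mx1 had 679, 746 and 862 in male knockouts, against 1166, 1814 and 1358 in male controls, and 941, 958 and 1058 in female knockouts, against 645, 1114 and 1527 in female controls. Its male groups did not overlap, at -0.91 ± 0.19 (SE, adjusted p = 0.0157), and the call was lost without male knockout 1 (adjusted p = 0.077). The female log2 fold changes were 0.13 for Mx2 and -0.07 for Mx1, neither of them called.

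Of the other antiviral effectors, 4 of 6 fell in male knockouts. Rsad2, which makes a chain-terminating nucleotide, had 2855, 2992 and 4460 in male knockouts, against 9072, 19354 and 10770 in male controls. Female knockouts had 5511, 6487 and 4771, against 3908, 6147 and 9383 in female controls. Its male groups were far apart, at -1.88 ± 0.28 (SE, adjusted p = 0.00458). Cmpk2, the neighbouring gene on chromosome 12, which encodes a mitochondrial nucleotide kinase, had 2231, 1932 and 4313 in male knockouts, against 5046, 10899 and 6552 in male controls, and 3678, 4362 and 3927 in female knockouts, against 2356, 3166 and 5253 in female controls. It fell in males, with a log2 fold change of -1.43 ± 0.36 (SE, adjusted p = 0.0398), a call lost without male knockout 1, male knockout 2, male control 2 or male control 3 (adjusted p up to 0.163), with no filter on low values (adjusted p = 0.0855) and with limma-voom (adjusted p = 0.0644). Bst2, which tethers budding virus to the cell, had 844, 1135 and 641 in male knockouts, against 1936, 3311 and 3086 in male controls, and 2573, 2298 and 2991 in female knockouts, against 3170, 2654 and 2438 in female controls. Its male fold change was -1.67 ± 0.25 (SE, adjusted p = 0.00443), without overlap. Samd9l, which restricts poxviruses, had 2424, 1564 and 2613 in male knockouts, against 3471, 5932 and 3754 in male controls, and 3562, 3372 and 3643 in female knockouts, against 3001, 4908 and 6556 in female controls. It fell in males, with a log2 fold change of -0.99 ± 0.25 (SE, adjusted p = 0.0305) and lost its call without the same 4 libraries as Cmpk2 (adjusted p up to 0.0761). Ifitm3, which hinders fusion of virus with the endosome and shares some of its 50-base words with other genes, and Rnf213, a very large ubiquitin ligase, were not called in males, at -0.34 and -0.51. Ifitm3 ranged over 1415 to 3120 in male knockouts, against 2229 to 2778 in male controls, so the groups overlapped, and it was called lower without male knockout 2 (adjusted p = 0.0302). Rnf213 ranged over 5721 to 7393 in male knockouts, against 7268 to 12508 in male controls, also with overlap. In females the 6 genes ran from -0.38 to 0.23 and none was called, other than Samd9l without female control 1 and, as higher, Cmpk2 without female control 3 (adjusted p = 0.0385).

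The guanylate binding proteins, GTPases that coat intracellular pathogens, form a cluster on chromosome 3, and 2 of 4 fell in male knockouts. Gbp5 had 909, 789 and 876 in male knockouts, against 1978, 3598 and 2034 in male controls. Among females it had 2058, 1954 and 1674 in knockouts, against 1156, 1156 and 1849 in controls. The male groups did not overlap, at -1.51 ± 0.22 (SE, adjusted p = 0.00398), and the female log2 fold change was 0.48 ± 0.19 (SE, adjusted p = 0.118), called without female control 3 (adjusted p = 0.00753). Gbp3 had 2556, 2528 and 2872 in male knockouts, against 4512, 9073 and 4517 in male controls, and 4950, 5593 and 5882 in female knockouts, against 4420, 4004 and 5892 in female controls. Male control 2 was far above the other male controls, and the male log2 fold change of -1.11 ± 0.25 (SE, adjusted p = 0.021) was lost without male knockout 1 or male knockout 2 (adjusted p up to 0.0862). Gbp2 was not called in males, at -0.45, other than without male control 1 (adjusted p = 0.0279), and it ranged over 3198 to 4181 in male knockouts, against 3603 to 5723 in male controls. Gbp7, of which 12.7% of the 50-base words occur in other genes, was not called in males, at -0.62, with 1247 to 1681 in male knockouts, against 1890 to 3315 in male controls. The female log2 fold changes ran from -0.19 for Gbp7 to 0.61 for Gbp2 and none was called.

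In the Isg15 pathway and among regulators of the response, 3 of 4 members fell in male knockouts. Isg15, a ubiquitin-like protein that is joined to viral and host proteins, had 476, 700 and 507 in male knockouts, against 1359, 2197 and 1607 in male controls. Female knockouts had 1648, 1324 and 1479, against 1217, 1780 and 1445 in female controls. The male fold change was -1.61 ± 0.22 (SE, adjusted p = 0.0031) without overlap, and the female groups lay over each other at 0.01. Usp18, which removes Isg15 and dampens interferon receptor signalling, had 1008, 1148 and 1558 in male knockouts, against 2374, 5167 and 3778 in male controls, and 2551, 2702 and 2835 in female knockouts, against 1703, 2190 and 2702 in female controls. It fell in males, with a log2 fold change of -1.56 ± 0.27 (SE, adjusted p = 0.00746), and in females it was called higher without female control 3 (adjusted p = 0.038). Trafd1, an inhibitor of innate immune signalling, had 3901, 4176 and 3856 in male knockouts, against 7185, 9077 and 7677 in male controls, and 6157, 6373 and 5447 in female knockouts, against 5483, 5982 and 6405 in female controls. All 3 male knockouts lay close together and below the male controls, at -0.998 ± 0.12 (SE, adjusted p = 0.00212). Trim25, a ubiquitin ligase that helps activate RNA sensing, was not called in males, at -0.24, with 3938 to 4787 in male knockouts, against 4660 to 5810 in male controls. In females it was at 0.11, also not called.

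None of the 3 ADP-ribosylation partners on chromosome 16 was called in either sex in limma, though DESeq2 called Parp9 and Parp14 lower in males. Parp9 and Dtx3l form an enzyme complex and Parp14 is a further ADP-ribosyltransferase. The male log2 fold changes were -0.70 for Parp9, -0.63 for Parp14 and -0.23 for Dtx3l. Parp9 ranged over 2379 to 4216 in male knockouts, against 3814 to 6367 in male controls. Parp14 ranged over 3948 to 4846 in male knockouts, against 5283 to 9440 in male controls, so that its groups alone among the 3 did not overlap. Dtx3l ranged over 2286 to 2726 in male knockouts, against 2433 to 3383 in male controls. Parp9 was called without male knockout 3 (adjusted p = 0.0255) and Parp14 without male control 1 (adjusted p = 0.0472). The female log2 fold changes were 0.03 for Parp9, -0.06 for Parp14 and 0.44 for Dtx3l, the last of which was called without female control 3 (adjusted p = 0.0266). Parp9 and Dtx3l overlap by 682 bases on opposite strands, and the strand setting of the counting is not given in the sources used here. Irf1, Irf7, Dhx58, Oas2, Oasl1, Rnf213, Usp18, Trafd1, Cxcl10 and Ifi35 also overlap a gene on the opposite strand. Irf9 and Parp14 overlap a gene on their own strand, where strand cannot separate the reads.

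Both secreted members fell in male knockouts. Cxcl10, a chemokine that draws T cells through the receptor Cxcr3, had 1271, 649 and 940 in male knockouts, against 3584, 4558 and 3628 in male controls. Female knockouts had 2918, 2474 and 2179, against 1484, 1665 and 2848 in female controls. Every male knockout was below every male control, at -2.08 ± 0.23 (SE, adjusted p = 0.00173), or 4.24 times lower. This was the lowest male value of the 45 members in limma, but Ifit1, Mx2 and Rsad2 lay within 1 SE of it. In the authors' deposited table Mx2 is lowest at -2.07, ahead of Cxcl10 at -2.04. The female log2 fold change was 0.39 ± 0.25 (SE, adjusted p = 0.321), called without female control 3 (adjusted p = 0.0161). Cxcl10 lies wholly within the opposite-strand gene Art3, whose mean in male controls was 62.4 normalized counts. Lgals3bp, a secreted glycoprotein that binds galectins, had 10628, 14349 and 9873 in male knockouts, against 18852, 28806 and 27885 in male controls. In females it had 18672, 17262 and 21231 in knockouts, against 23834, 19933 and 20769 in controls. Its male log2 fold change was -1.11 ± 0.20 (SE, adjusted p = 0.00777), and the female value of -0.18 was not called.

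The Apol9 genes, mouse members of the apolipoprotein L family, were the only members called in both sexes, and in opposite directions. Apol9b had 126, 193 and 96.1 in male knockouts, against 324, 357 and 428 in male controls. Among females it had 408, 406 and 383 in knockouts, against 146, 170 and 249 in controls. Male knockouts lay below and female knockouts above all controls of their sex, at -1.46 ± 0.32 (SE, adjusted p = 0.0173) in males and 1.116 ± 0.21 (SE, adjusted p = 0.00826) in females. Apol9a had 156, 167 and 176 in male knockouts, against 260, 543 and 375 in male controls. In females it had 454, 410 and 387 in knockouts, against 163, 180 and 310 in controls. The groups again did not overlap, at -1.17 ± 0.31 (SE, adjusted p = 0.0355) in males and 0.99 ± 0.24 (SE, adjusted p = 0.0231) in females. The genes are not independent measurements, since 52.3% of the 50-base words of Apol9b and 16.5% of those of Apol9a occur in the other, and their promoter stretches were identical. The male call of Apol9b was lost without male knockout 1 or male control 3 (adjusted p up to 0.0763), and that of Apol9a without each male library other than control 1 (up to 0.132). The female call of Apol9b held without each library (adjusted p up to 0.0385), and that of Apol9a held only without female control 3 (up to 0.0773 otherwise).

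Of the 5 remaining members, 4 fell in male knockouts. Ifi27, an interferon-induced mitochondrial protein, had 2500, 3213 and 2124 in male knockouts, against 4646, 5351 and 6551 in male controls. Female knockouts had 3929, 4295 and 4902, against 5655, 4436 and 4663 in female controls. The male groups did not overlap, at -1.08 ± 0.18 (SE, adjusted p = 0.0062). Xaf1, which binds an inhibitor of apoptosis, had 1670, 2634 and 2771 in male knockouts, against 4747, 5365 and 4126 in male controls, and 5231, 3578 and 3580 in female knockouts, against 3667, 5153 and 4113 in female controls. It fell in males, with a log2 fold change of -1.04 ± 0.20 (SE, adjusted p = 0.0105). Ifi44 had 640, 572 and 540 in male knockouts, against 878, 1559 and 1069 in male controls, and 1424, 1424 and 1783 in female knockouts, against 663, 1154 and 1497 in female controls. Its male log2 fold change of -0.96 ± 0.22 (SE, adjusted p = 0.0209) was lost without male knockout 1 or male knockout 3 (adjusted p up to 0.062). Ogfr, the opioid growth factor receptor, had 3118, 3363 and 3314 in male knockouts, against 4871, 4962 and 5394 in male controls, and 4605, 4716 and 4189 in female knockouts, against 4120, 3964 and 4355 in female controls. Its spread within groups was small, and its male fold change was -0.64 ± 0.11 (SE, adjusted p = 0.00699), lost without male knockout 1 (adjusted p = 0.0507). Ifi35 had 1097, 1439 and 1715 in male knockouts, against 1644, 1748 and 2065 in male controls. Among females it had 1832, 2072 and 2052 in knockouts, against 1654, 1467 and 1549 in controls. It rose in females, with a log2 fold change of 0.35 ± 0.10 (SE, adjusted p = 0.0366), a call that, of the fits without 1 library, held only without female control 1 (up to 0.145 otherwise) and that was lost with all 12 libraries in 1 fit (adjusted p = 0.158). It was not called in males at -0.38. The other 4 were not called in females, with log2 fold changes from -0.17 for Ifi27 to 0.55 for Ifi44.

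**Figure D4:**
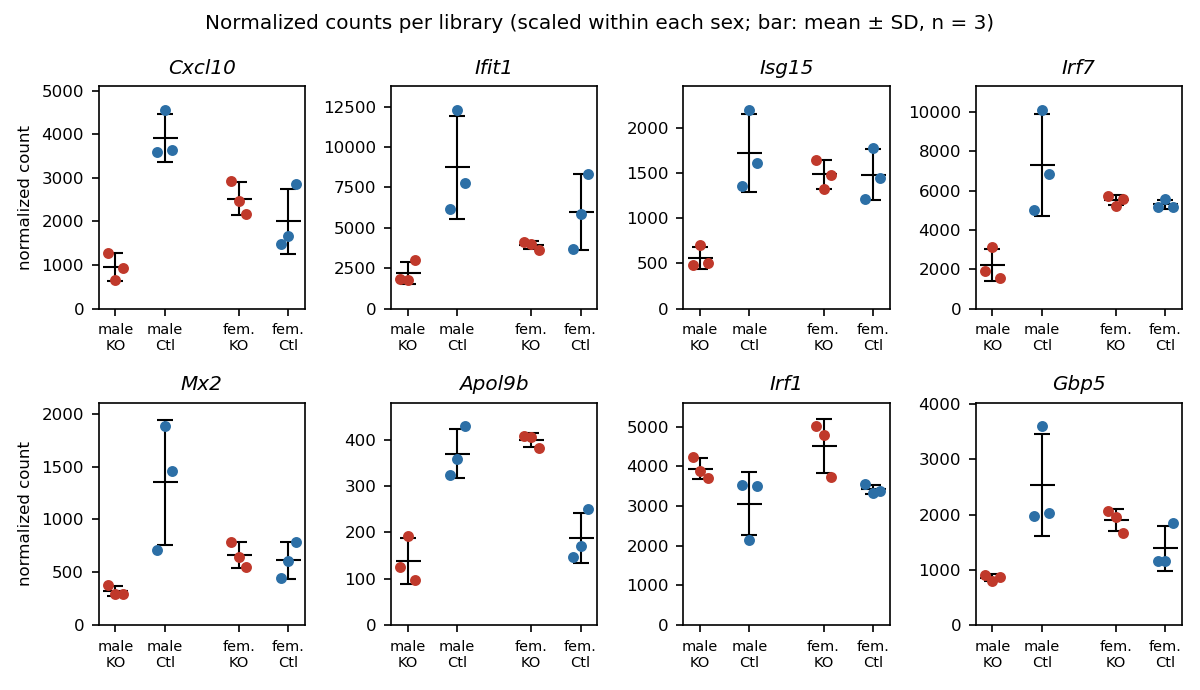
Normalized counts of 8 members in each library (points), with the mean and SD of each group of 3 libraries; the axes start at 0 and the values are scaled within each sex. For Cxcl10, Ifit1, Isg15, Irf7, Mx2 and Gbp5 the male knockout points lie below the male controls and the female groups overlap; Apol9b moves in opposite directions, and the Irf1 knockout points lie above the controls in both sexes.

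Control levels show how strongly islets expressed the genes without the knockout. Per length, as reads scaled to exon length and library depth (RPKM, computed from recovered reads and GENCODE M21 exons), Lgals3bp was the highest member in male controls at 221.8 ± 49.3 RPKM and in female controls at 185.5 ± 6.62 RPKM (SD, n = 3 each). In male controls Ifit3 (141 ± 47.4), Ifi27 (94.2 ± 15.99), Ifitm3 (92.1 ± 9.56), Ifit1 (82.6 ± 31.1) and Bst2 (77.2 ± 20.8) followed, and none of these 5 differed from its neighbour in the order beyond their spread. In female controls Ifitm3 (154 ± 41.7), Ifit3 (84.9 ± 28.9), Ifi27 (82.2 ± 5.83) and Bst2 (74.8 ± 6.43) followed, with overlapping ranges between neighbours other than Ifitm3 and Ifit3. The lowest members were Oas3 at 1.16 ± 0.31 RPKM and Apol9a at 1.66 ± 0.61 RPKM in male controls, and Apol9a at 0.91 ± 0.36 RPKM and Oas3 at 0.98 ± 0.34 RPKM in female controls. Lgals3bp stood above 99.4% and Oas3 above 35.3% of the genes tested in male controls. In male knockouts the levels per length were 111.7 ± 20.4 RPKM for Lgals3bp, 45.9 ± 7.21 RPKM for Ifit3 and 22.7 ± 7.36 RPKM for Ifit1.

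Summed over the 45 members, the share of assigned reads was 0.269%, 0.276% and 0.307% in male knockouts, against 0.419%, 0.684% and 0.515% in male controls. In females it was 0.489%, 0.46% and 0.501% in knockouts, against 0.316%, 0.422% and 0.51% in controls. The male knockouts were therefore close to each other and below all male controls, and the female knockouts lay inside the range of the female controls. The controls spanned a wider range than the knockouts in both sexes. Male control 2 had the highest value of the 6 male libraries in 37 members and male control 1 in 0, whereas female control 3 was highest in 21 members and female control 1 lowest in 32. The members moved together between control libraries of a sex, with a median log2 difference from the control mean of -0.32, 0.38 and -0.03 in male controls and -0.37, 0.02 and 0.43 in female controls. The same median over all genes tested stayed between -0.03 and 0.03 in all 6 control libraries. The part of this spread between controls in the results was not tested beyond the fits that leave out 1 library.

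**Figure D5:**
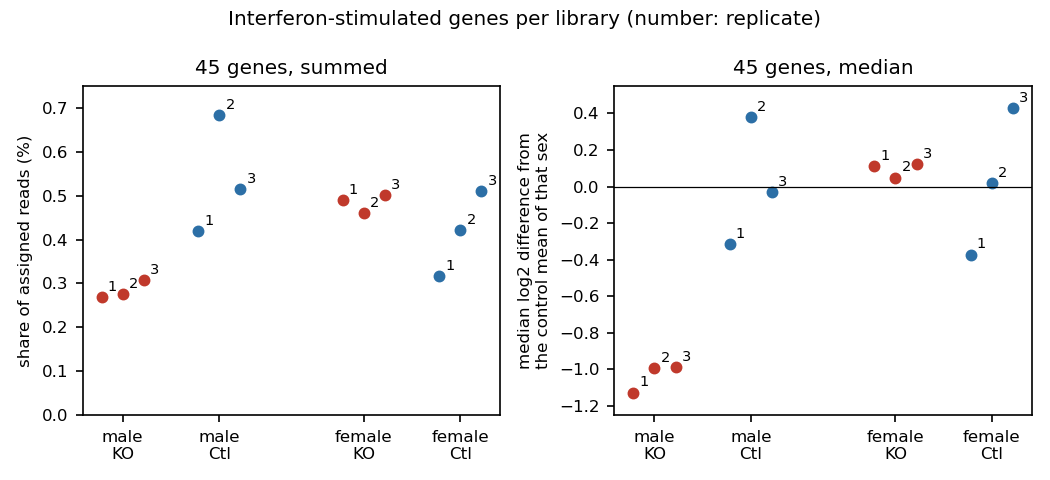
The 45 members in each library: their summed share of assigned reads in percent (left) and the median over members of the log2 difference from the control mean of that sex (right), with the replicate number beside each point, knockouts in red and controls in blue. Male knockouts lie at 0.269 to 0.307%, below the 0.419 to 0.684% of male controls, and female knockouts at 0.46 to 0.501% lie within the 0.316 to 0.51% of female controls.

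The knockout effect was set against sex in a fit of all 12 libraries, as the male log2 fold change minus the female. Of the 45 members, 5 differed between the sexes at an adjusted p below 0.05, all with the lower value in males, where 0.11% of the 17330 genes tested (19 genes) were called in that direction. At an unadjusted p below 0.05, 36 members had the lower value in males, as had 4.0% of all genes tested, and 0 had the higher. The differences were -2.58 ± 0.38 for Apol9b (SE, adjusted p = 0.031), -2.47 ± 0.37 for Cxcl10 (adjusted p = 0.031), -1.99 ± 0.32 for Gbp5 (adjusted p = 0.0465), -1.01 ± 0.15 for Trafd1 (adjusted p = 0.0346) and -0.75 ± 0.12 for Ogfr (adjusted p = 0.0469). The median over the 45 members was -1.20, and 44 of them lay below 0, with Irf1 at 0.01. In 29 members the log2 fold change was below 0 in males and above 0 in females. These calls were not stable when 1 library was left out. Without any 1 of the female knockouts or without female control 2, 0 members and 0 of all genes tested were called. The same held without male knockout 1, male knockout 3 or male control 3. Without female control 1, 0 members were called, where 15 of all genes had the lower value in males. The adjusted p of these 5 members reached 0.181 in the fits without 1 library, but their differences stayed below 0 in each. Called members were 15 without male control 1 (50 of all genes called lower), 6 without female control 3 (17), 5 without male knockout 2 (19) and 3 without male control 2 (15). For the other 40 members an effect called in males is not shown to differ from that in females.

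Most genes of the pathway that leads to these members were not called in either sex. Of the 9 interferon receptor and JAK kinase genes, Jak1 alone was called, higher in both sexes, at a log2 fold change of 0.78 in males and 0.69 in females. Of the 18 nucleic acid sensors and adaptors tested, 4 were lower in males, namely Ikbke (-0.97), Ddx58 (-0.89), Ticam1 (-0.64) and Myd88 (-0.57), where 7.09% of all genes were called lower. This count was 0 without male knockout 1 or male control 3, 1 without male knockout 3 or male control 2, and 2 without male knockout 2 or male control 1. In these fits 508 to 1138 of all genes were called lower in males, against 1277 with all libraries. Ikbke (-0.69) and Ticam1 (-0.57) were also lower in females, a share close to the 10.7% of all genes. Ddx58 encodes the RNA sensor RIG-I, Ticam1 and Myd88 encode adaptors of Toll-like receptors, and Ikbke encodes a kinase that activates Irf factors. Among the 6 feedback inhibitors, Irf2, which competes for the ISRE, rose in males (0.72) and females (0.95), as did Pias1, an inhibitor of interferon signalling (0.78 in males, 0.80 in females). Socs3, which blocks JAK kinases, rose in females (0.55). Ptpn6, a phosphatase that acts on JAK kinases, fell in males (-0.62), a call lost without male knockout 1, male knockout 3, male control 1 or male control 3. In females 3 of the 6 inhibitors were called higher, where 9.9% of all genes were. This count was 2 without any 1 female library other than knockout 3, and with all 12 libraries in 1 fit. In males 2 were called higher, where 6.08% of all genes were, with 1 without male knockout 1 and 3 without male knockout 3. Of the interferon genes in the list, Ifnb1 had 0 to 3 reads in male knockouts, against 0 to 12 in male controls, and 0 to 7 in female knockouts, against 0 to 8 in female controls, below the level tested. The others of the 9 interferon genes in the list were absent from both the male and the female table.

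In a further list of 50 interferon-stimulated genes outside the 45, 21 in males were lower and 0 higher, with a median log2 fold change of -0.65, where 7.09% of all genes were called lower. This list too was chosen with earlier results of these data known. Ddx60, an RNA helicase (-2.23), Gbp6 (-1.71), Rtp4 (-1.68), Igtp, an immunity-related GTPase (-1.58), and Isg20, an exonuclease (-1.52), were the lowest of those called. The others called were Oas1g (-1.44), Irgm2 (-1.15), Helz2 (-1.14), Oas1b (-1.12), Irgm1 (-1.10), Herc6 (-1.05), Tor3a (-0.99), Gbp8 (-0.97), Gbp4 (-0.94), Mlkl (-0.89), Uba7 (-0.87), Cd274 (-0.87), Ly6e (-0.75), Parp12 (-0.64), Parp10 (-0.62) and Pml (-0.54). Without male knockout 1, 10 of the 50 were lower, as were 508 of all 17986 genes tested. In females Ly6e was higher (0.48) and Isg20 lower (-0.43), with a median of 0.05. Without female control 1 the count of lower genes in this list was 6, where 2000 of all 18207 genes were called lower. Class I antigen presentation, which shows peptides to T cells, had 6 of 13 genes lower in males: Tap1 (-1.03), Psmb8 (-0.93), B2m (-0.83), H2-Q4 (-0.83), H2-K1 (-0.75) and H2-D1 (-0.68). The male count was 5 without male knockout 1 and 8 without male knockout 2, where 508 and 1112 of all genes were lower. In females 4 of these 13 were higher: Psmb9 (0.82), H2-T23 (0.60), Tap2 (0.57) and Tapbp (0.39). Of all genes tested in females, 9.9% were called higher. The female count was 3 without any 1 female library other than control 1, and 8 with quantile scaling, where 1993 of all 18142 genes were higher. Tap1 (-1.31) and H2-Q4 (-1.11) also differed between the sexes, though leaving out any 1 of 7 of the 12 libraries left 0 genes of this list called by limma. In those fits 0 of all genes tested were called.

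Markers of other cell types moved with the knockout in part. The 8 endothelial markers summed to 602.2 to 784.6 CPM (counts scaled to library depth) in male knockouts, against 404.5 to 453.6 in male controls, with 4 called higher, and to 666.8 to 878.9 in female knockouts, against 550.5 to 647.5 in female controls, with 0 called. The 12 macrophage markers summed to 82.8 to 104.5 CPM in male knockouts, against 65.0 to 162.3 in male controls, and to 104.5 to 201.8 in female knockouts, against 120.4 to 190.6 in female controls, with 0 called in either sex. T and NK cell markers summed to 0.55 to 1.95 CPM in male knockouts, against 0.52 to 11.6 in male controls, and to 2.06 to 29.1 in female knockouts, against 2.14 to 12.05 in female controls. B and plasma cell markers summed to 8.28 to 53.3 CPM in male knockouts, against 4.17 to 92.5 in male controls, and to 11.55 to 159.7 in female knockouts, against 36.3 to 1235 in female controls. The summed T and NK, B and plasma, and macrophage markers thus overlapped between groups in both sexes and no listed marker was at 0 in all 3 libraries of a group. Of the 6 plasmacytoid dendritic cell markers, the 1 called in males was Bst2 itself. The 10 beta cell markers summed to 105000 to 155500 CPM in male knockouts, against 163900 to 212600 in male controls, and to 113900 to 117900 in female knockouts, against 130700 to 184400 in female controls. Of the other marker lists, delta and PP cell markers had 3 of 6 lower in each sex. Stellate markers had 1 of 7 and Schwann cell markers 1 higher in each sex. Alpha cell markers had 1 of 6 higher in females and erythrocyte markers 1 of 5 higher in males. Acinar and duct markers had 0 called in limma in either sex. The 7 acinar markers tested had log2 fold changes of -1.45 to -0.99 in females and 0.14 to 0.31 in males. Their sums spread from 3168 to 46550 CPM in male controls. Summed stellate and erythrocyte markers lay above all male controls in every male knockout, and summed duct markers below, with overlap in females. Summed Schwann cell markers lay above all controls in every knockout library of both sexes. The part of these shifts in the levels of the interferon-stimulated genes was not tested.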

How the data were processed

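RNA of hand-picked mouse islets was sequenced in 12 libraries. Per the submitters' processing notes, FastQC 0.11.9, Trim Galore 0.6.7, STAR 2.7.3a, featureCounts and GRCm39 (mm39) were used; the annotation release, strand setting and rule for reads that map to several genes are not given in the sources used here. The deposited tables, 1 for each sex, hold the authors' DESeq2-normalized counts, a signal that is already scaled within each sex, with the authors' log2 fold changes and adjusted p-values. No gene under 10 reads in total was in the tables. Whole reads were recovered from these values (100% within a tolerance of 0.001), which gave the depth of each library. After removal of 79 (female) and 73 (male) repeated entries, genes with a mean normalized count of at least 10 over the 6 libraries of a sex were tested.

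Tests used limma 3.58.1 in R 4.3.3 (trend, robust) on log2(normalized count + 1), with Benjamini-Hochberg adjustment over all genes tested and a call at an adjusted p below 0.05. The log2 scale with a pseudocount of 1 understates changes of low genes. The sex difference used 1 fit over 12 libraries, although the tables were scaled separately. The script was tested on simulated data. Alternatives used edgeR 4.0.16 and DESeq2 1.42.0 on the recovered reads, other filters, pseudocounts and scalings, and each library left out. Tables were handled with python 3.11.15, pandas 2.3.3 and numpy 2.4.6. Groups came from the labels. The members and all gene lists were chosen with earlier results of these data known. Values in every library are given for each member called in either sex or between the sexes and for Cxcl10, Irf7, Irf1, Irf9, Stat2, Isg15, Ifit1, Mx1, Oas1a, Usp18 and Zbp1; other members are given by fold change and range, and genes of the pathway lists where called. A gene of the pathway lists is not reported here.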

Additional observations from a re-analysis of the deposited data

Results flagged for a closer look

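With all 12 libraries, the test of the difference itself called the knockout effect different between the sexes for 5 members. Their adjusted p-values in limma ran from 0.031 to 0.0469. These calls were not stable, since 0 members were called with the replicate block or without any 1 of the female knockouts, among other fits. The male minus female log2 fold change was -2.58 for Apol9b, -2.47 for Cxcl10, -1.99 for Gbp5, -1.01 for Trafd1 and -0.75 for Ogfr. The male log2 fold change of each was below 0 and the female above 0. For Apol9b both were called, while for the other 4 the male one alone was. Groups of 3 libraries were too small for a search for single outlying libraries.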

How the results depend on the processing

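The direction of the male result held under every alternative tried: 20 to 33 members were lower without 1 library and 29 to 38 under the other filters, pseudocounts, scalings and tools, with medians of -1.147 to -0.902 without 1 library. Over all genes, 508 to 1138 were called lower in males without 1 library. Under the other filters, pseudocounts, scalings and tools it was 1191 to 1838. The female count of higher members was 3 and became 5 with DESeq2, and it ranged from 1 to 9 without 1 library, with 0 to 2 lower and medians of -0.062 to 0.287. Over all genes, 774 to 1867 were called higher and 1065 to 2000 lower in females without 1 library. The count of sex differences ranged from 0 to 15 without 1 library, where 0 to 50 of all genes were called lower. With quantile scaling 7 members were called, where 37 of all genes were called lower. The cause of these shifts was not tested. Same-numbered knockout and control libraries had correlated deviations of -0.276 to -0.0408 in females and 0.00966 to 0.153 in males. Libraries with different numbers had -0.108 to 0.248 in females and -0.159 to 0.0843 in males. The labels give no pairing, and deviations within groups of 3 libraries cannot show or exclude one. With the replicate block, 3 members were higher in females, 31 lower in males and 0 differed between the sexes, as did 0 of all genes tested. The block took the female call from Ifi35 (adjusted p = 0.0693) and gave one to Gbp2 (0.00845), and in males it took that of Samd9l (0.0562) and gave one to Stat2 (0.0495) and Zbp1 (0.0436). With it, 1 nucleic acid sensor or adaptor was lower in males, against 4 without it. No filter on low values moved the median of all male genes to 0.148. With 3 libraries a group, and 19759712 reads in male control 2, small changes may be missed.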
